A study of Mus musculus with 2 samples.

Results

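Toll-like receptor genes were followed in sorted cells of mouse dorsal skin. The 10 genes Tlr1, Tlr2, Tlr3, Tlr4, Tlr5, Tlr6, Tlr7, Tlr8, Tlr9 and Tlr13 were taken by symbol from the 32285 genes of the count matrix, and each symbol had 1 row. The cells came from wild-type (WT) male mice of 9 and 108 weeks, with 2 mice pooled at each age, no treatment and no culture. Cells positive for F4/80 with high surface MHC class II were sorted from digested dorsal skin, so that macrophages were the intended population. A suffix on the cell barcode separates the 2 libraries, but no source used here ties a suffix to an age, so the ages were pooled and suffixes 1 and 2 are given as libraries of unknown age. The cells therefore make up 1 pooled sample, no test between conditions was possible, and every interval below covers counting error only.

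Toll-like receptors are germline-encoded receptors that recognise molecular patterns of microbes and of damaged tissue. TLR2 pairs with TLR1 or TLR6 at the cell surface and binds lipoproteins, TLR4 binds lipopolysaccharide together with CD14 and MD-2, and TLR5 binds flagellin. TLR3, TLR7, TLR8, TLR9 and TLR13 reside in endosomes and sense nucleic acids, and the chaperone UNC93B1 carries them there. All except TLR3 signal through the adapter MYD88, and TLR3 and TLR4 use TRIF, the product of Ticam1. In skin, macrophages, dendritic cells and several stromal cells are known to carry such receptors.

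Unique molecular identifiers (UMIs), each standing for a captured transcript end, were counted in 3797 of 5257 barcodes that passed the filter. Library totals in these cells were 32802942 UMIs with suffix 1 and 17997946 with suffix 2, with medians of 10761 and 11196 per cell, and 1 barcode sequence occurred in both libraries. Clusters were named from marker lists, which gave 1236 macrophage-like, 159 dendritic-like, 826 fibroblast-like, 351 endothelial-like and 78 keratinocyte-like cells. Despite the sort, macrophage-like cells were 41.1% of the cells with suffix 1 and 18.0% of those with suffix 2, whereas fibroblast-like cells were 13.3% and 36.3%. All 10 macrophage markers and all 8 fibroblast markers had UMIs in their own group, which follows from naming the groups by these lists. The macrophage markers also had UMIs elsewhere. They summed to 9336 CPM in macrophage-like, 1026 CPM in dendritic-like, 608 CPM in endothelial-like and 143 CPM in fibroblast-like cells. A further 293 cells, led by S100a9, Ly6c2, S100a8 and Spp1, had all 10 macrophage markers but also neutrophil markers among their leading genes, stayed unnamed and are called the S100a9 cluster. Of these cells, 254 carried suffix 1. Another 2 unnamed clusters scored highest for the dendritic list but had Cd207 among their leading genes: 206 cells led by Klrb1b and Mmp12 (the Mmp12 cluster) and 144 led by Igkc and Cd79a (the Igkc cluster).

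The 10 genes lie on 7 mouse chromosomes (build GRCm38, GENCODE positions). Tlr1 at chr5:64924679-64933563 and Tlr6 at chr5:64952031-64960097 are neighbours 18468 bases apart, and Tlr8 at chrX:167242696-167264329 and Tlr7 at chrX:167304929-167330558 are separated by 40600 bases. Tlr1 and Tlr6 transcripts share 286 words of 91 bases, the length of the sequenced insert, which is 8.69% of the words of Tlr1 and 7.81% of those of Tlr6, so reads there could not be assigned to either gene. The others are Tlr2 at chr3:83836272-83841767, Tlr3 at chr8:45395665-45411080, Tlr4 at chr4:66827584-66930284, Tlr5 at chr1:182954788-182976044, Tlr9 at chr9:106222598-106226883 and Tlr13 at chrX:106143204-106160493. Tlr3 overlaps Gm45542, which lies on the opposite strand, and no other member overlaps another gene.

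Promoter windows from RefSeq (GRCm38.p6, 250 bases before to 50 bases after the annotated start) were matched for 8 of the 10 members. The windows of Tlr2, Tlr13 and Tlr3 are shown because these genes had their highest levels in different cells: Tlr2 in macrophage-like clusters, Tlr13 in the S100a9 cluster and Tlr3 in endothelial-like cells. They cover chr3:83841559-83841858 on the minus strand for Tlr2, chrX:106143025-106143324 on the plus strand for Tlr13, and chr8:45410331-45410630 on the minus strand for Tlr3, written 5′ to 3′ along the gene. Capitals mark matches, on either strand, to GGGNNNNNCC (the NF-kappaB type), GAGGAAG (the ETS type), TGANTCA (AP-1) or GAAANNGAAA (the interferon response type).
Tlr2: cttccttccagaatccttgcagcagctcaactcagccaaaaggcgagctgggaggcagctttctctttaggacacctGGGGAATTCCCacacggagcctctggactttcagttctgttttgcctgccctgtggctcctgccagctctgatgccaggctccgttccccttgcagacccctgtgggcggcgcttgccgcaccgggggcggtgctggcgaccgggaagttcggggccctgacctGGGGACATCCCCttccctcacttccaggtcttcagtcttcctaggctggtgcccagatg
Tlr13: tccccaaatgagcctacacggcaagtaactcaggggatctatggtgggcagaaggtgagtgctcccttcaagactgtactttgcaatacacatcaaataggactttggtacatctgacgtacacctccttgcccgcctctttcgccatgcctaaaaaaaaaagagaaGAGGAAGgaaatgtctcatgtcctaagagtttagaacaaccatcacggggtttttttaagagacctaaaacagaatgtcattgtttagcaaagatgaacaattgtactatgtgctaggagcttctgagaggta
Tlr3: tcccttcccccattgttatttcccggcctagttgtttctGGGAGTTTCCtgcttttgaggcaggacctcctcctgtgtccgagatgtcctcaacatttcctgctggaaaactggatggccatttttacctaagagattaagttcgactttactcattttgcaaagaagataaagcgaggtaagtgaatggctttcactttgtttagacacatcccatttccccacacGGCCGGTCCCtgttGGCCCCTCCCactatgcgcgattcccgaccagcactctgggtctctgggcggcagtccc
Tlr2 held 2 stretches of the NF-kappaB type, which began 173 and 9 bases before the start, and Tlr3 held 3, at 211, 23 and 9 bases. The window of Tlr13 held none of that type and a GAGGAAG word 83 bases before the start. Among all 32851 windows of this length, 50.8% held GGGNNNNNCC, 13.6% GAGGAAG, 7.81% TGANTCA and 3.44% GAAANNGAAA, so a match of the first type is common. The matches describe letters, and 3′ counts do not show whether these starts were used.

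Macrophage-like cells had higher levels than fibroblast-like cells for 8 of the 10 genes by 2-fold or more, the exceptions being Tlr3 and Tlr4. Of all 14421 genes with at least 10 UMIs in the 2 groups together, 18.4% were higher in macrophage-like cells by that fold and 31.1% were lower, and no member was lower by that fold. The median log2 ratio of the members was 3.74, with genes at 0 in fibroblast-like cells entered at their lower bound, against -0.25 over all genes tested. The members passed the count limit largely through macrophage-like cells, which a gene high there could do without any UMI elsewhere. Levels are UMIs of a gene per 1000000 UMIs of the group (CPM), which compares a gene between cells and does not rank genes against each other. In RNA from pooled cells of a group, fewer positive cells and less RNA per positive cell cannot be told apart.

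**Figure D1:**
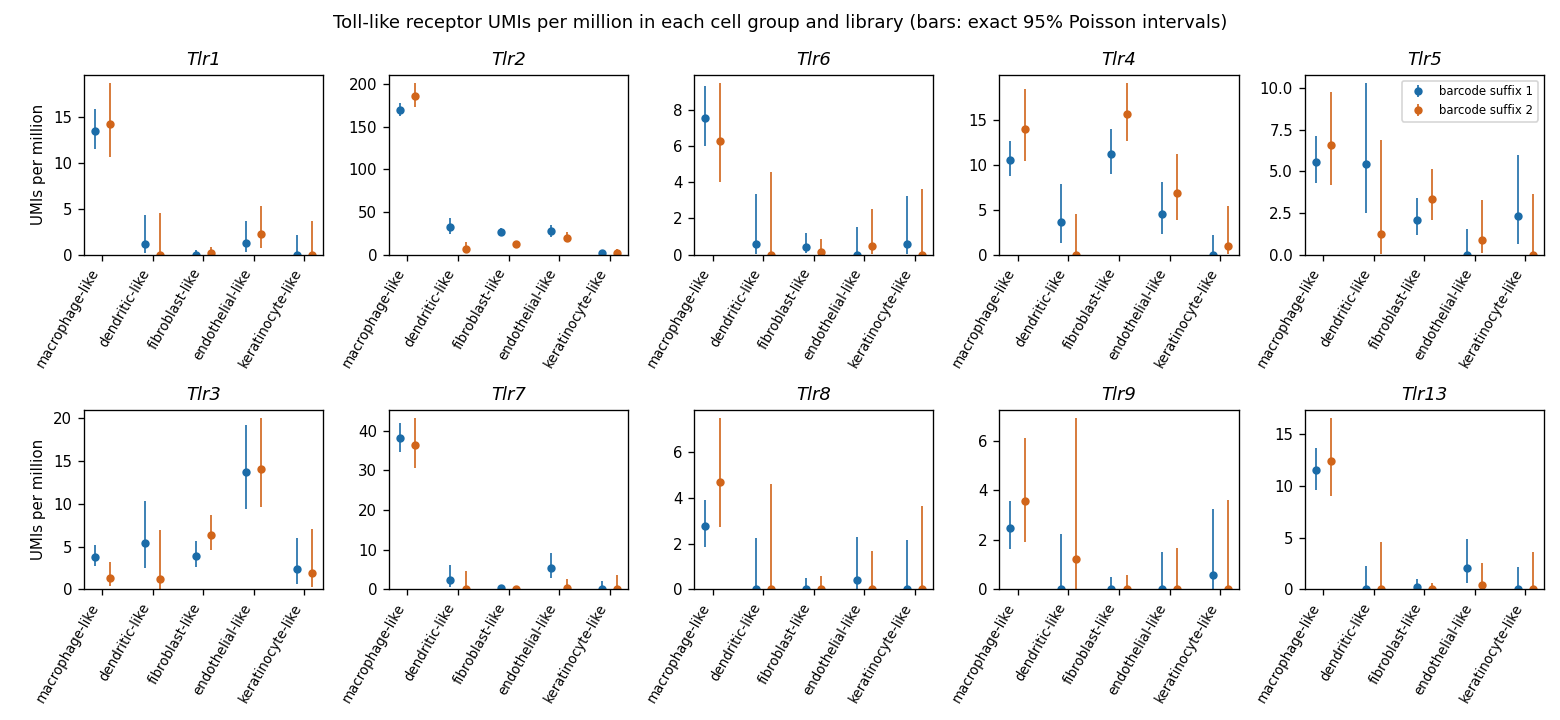
CPM (y axis, own scale for each gene) for the 10 Toll-like receptor genes in the 5 cell groups (x axis), with suffix 1 in blue and suffix 2 in orange. Points are group sums of each library and bars are exact 95% Poisson intervals. Tlr2 sits at 170 and 186 CPM in macrophage-like cells of the 2 libraries, above all other groups, whereas Tlr3 is highest in endothelial-like cells.

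Among the surface receptors for lipoproteins, Tlr2, the shared partner of both heterodimers, was at 170 CPM with suffix 1 and 186 CPM with suffix 2 in macrophage-like cells, 174 CPM pooled. In fibroblast-like cells it was at 26.9 and 12.3 CPM, so that the macrophage level stood above the fibroblast level in both libraries and the fibroblast level differed between them. The log2 ratio was 3.11 (95% interval 2.93 to 3.30, 2601 against 271 UMIs), or 8.65-fold, and was 2.66 with suffix 1 and 3.92 with suffix 2.
Tlr1, the partner for triacylated lipoproteins, was at 13.5 and 14.2 CPM in macrophage-like cells of suffixes 1 and 2. Fibroblast-like cells held 1 UMI of it in 13481396, a log2 ratio of 7.53 with a wide interval of 5.04 to 12.84. Tlr6, the partner for diacylated lipoproteins, was at 7.52 and 6.30 CPM in macrophage-like cells and at 0.416 and 0.159 CPM in fibroblast-like cells, a log2 ratio of 4.60 (3.21 to 6.51). Both partner genes were thus low in fibroblast-like cells of both libraries, and dendritic-like cells held only 2 UMIs of Tlr1 and 1 of Tlr6. Reads from the shared words named above may be missing from either count.

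Tlr4, the receptor for lipopolysaccharide, was the member shared most evenly between macrophage-like and fibroblast-like cells. It was at 10.5 and 14.0 CPM in macrophage-like cells and at 11.2 and 15.6 CPM in fibroblast-like cells of suffixes 1 and 2. The log2 ratio of -0.22 had an interval of -0.54 to 0.09, so a difference was not detectable at this depth, and both libraries gave a ratio near 0 (-0.10 and -0.16). Endothelial-like cells had 4.54 and 6.80 CPM, lower than macrophage-like cells by a log2 of 1.02 (0.41 to 1.67), which lies at the 2-fold limit. Keratinocyte-like cells had 1 UMI and dendritic-like cells 6 UMIs of Tlr4.
Tlr5, the flagellin receptor, was at 5.57 and 6.57 CPM in macrophage-like cells and at 2.08 and 3.35 CPM in fibroblast-like cells. Its log2 ratio of 1.12 (0.55 to 1.73) passed the 2-fold limit only narrowly and was 0.97 with suffix 2. Against dendritic-like cells, at 5.42 and 1.24 CPM, the log2 ratio of 0.52 had an interval from -0.43 to 1.63, and the libraries gave 0.04 and 2.41.

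Of the endosomal receptors, Tlr7, which senses single-stranded RNA, was at 38.2 and 36.4 CPM in macrophage-like cells of suffixes 1 and 2. Fibroblast-like cells had 0.416 and 0.159 CPM (4 UMIs), a log2 ratio of 6.99 (5.63 to 8.87). Tlr13, which senses a motif of bacterial ribosomal RNA, was at 11.5 and 12.3 CPM in macrophage-like cells and had 2 UMIs in fibroblast-like cells, a log2 ratio of 6.30 (4.43 to 9.36). The 2 libraries thus gave nearly equal macrophage levels of both genes, each far above the fibroblast level.
Tlr8 was at 2.74 and 4.65 CPM and Tlr9, the receptor for unmethylated CpG DNA, at 2.48 and 3.56 CPM in macrophage-like cells. Neither had a UMI in fibroblast-like cells, which allows a level of up to 0.223 CPM, so that Tlr8 was at least 14.4-fold and Tlr9 at least 12.3-fold higher in macrophage-like cells, with a limit of 3 counts over the group.

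Tlr3, the receptor for double-stranded RNA, departed from all other members. It was at 13.6 and 14.1 CPM in endothelial-like cells, at 3.89 and 6.37 CPM in fibroblast-like cells and at 3.80 and 1.37 CPM in macrophage-like cells of suffixes 1 and 2. Endothelial-like cells were highest in both libraries. The log2 ratio of macrophage-like over endothelial-like cells was -2.11 (-2.68 to -1.55, 48 against 64 UMIs), -1.84 with suffix 1 and -3.36 with suffix 2. Against fibroblast-like cells the log2 ratio was -0.65 (-1.22 to -0.10), but it was -0.03 with suffix 1 and -2.22 with suffix 2, so it rested on the library with suffix 2, which had 5 UMIs in macrophage-like cells.

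**Figure D2:**
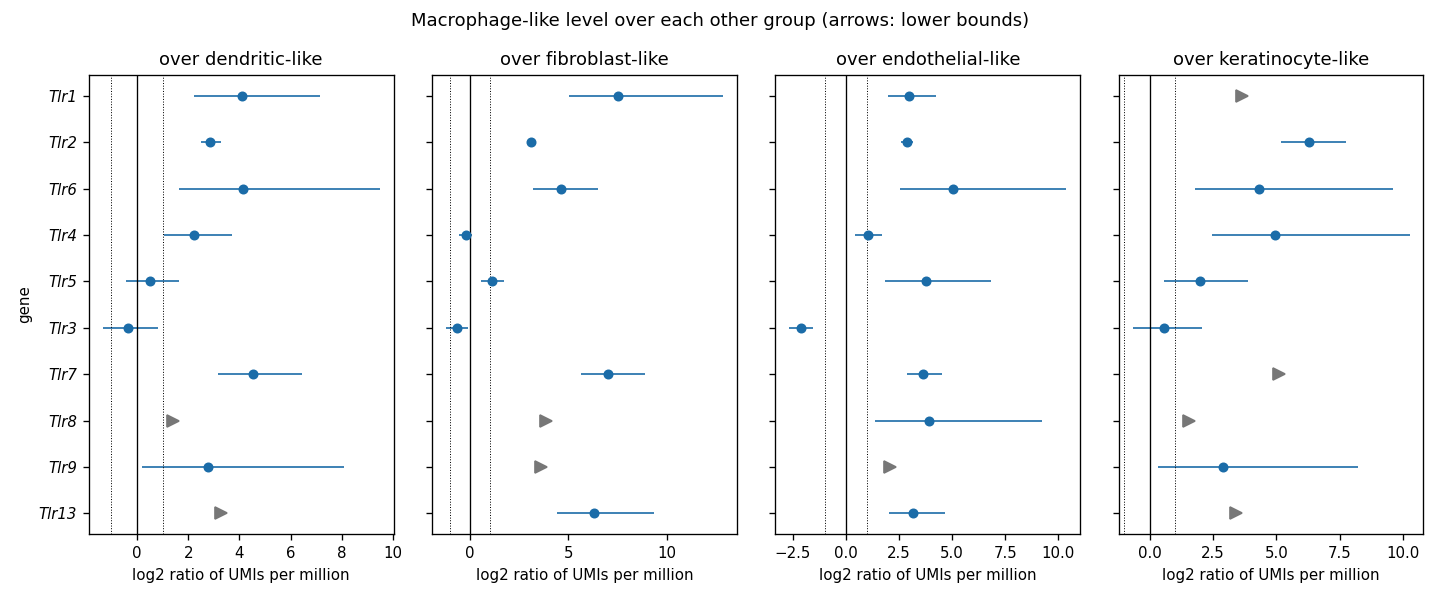
Log2 ratio of CPM in macrophage-like cells over dendritic-like, fibroblast-like, endothelial-like and keratinocyte-like cells (x axes) for each gene (y axis). Points have exact 95% intervals, arrows are lower bounds where the other group had no UMI, and dotted lines mark 2-fold. Tlr3 lies left of the 2-fold line over endothelial-like cells at -2.11, and Tlr4 is at -0.22 over fibroblast-like cells.

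Against the other groups the picture was similar, with Tlr3 as the recurring exception. Over endothelial-like cells, 9 members were higher in macrophage-like cells (background 16.4% of genes) and Tlr3 was lower (29.5%), with a median log2 ratio of 3.08 against -0.29 over all genes. Over dendritic-like cells, 8 were higher (16.2%) and none lower (12.4%), with a median of 2.81 against 0.04. Of the 8, Tlr8 and Tlr9 had 0 and 1 UMI in dendritic-like cells, and their intervals began at log2 1.05 and 0.20. With suffixes 1 and 2 alone, Tlr8 had 0.60 and 0.32 and Tlr9 had 0.46 and 1.52, any 0 entered at 3 counts. Over keratinocyte-like cells, 9 were higher (19.7%) and none lower (33.2%), with a median of 3.53 against -0.36. All 10 members had at least 10 UMIs in each comparison, and the medians hold genes at 0 at 3 counts.
Tlr2 was 23.9 CPM in dendritic-like, 23.8 CPM in endothelial-like and 2.20 CPM in keratinocyte-like cells, so that keratinocyte-like cells stood lowest. Its log2 ratios of macrophage-like cells over these groups were 2.86 (2.49 to 3.26), 2.87 (2.59 to 3.16) and 6.31 (5.18 to 7.75). Within dendritic-like cells the libraries differed, with 32.5 CPM (54 UMIs) for suffix 1 and 6.19 CPM (5 UMIs) for suffix 2. Of the 59 UMIs, 48 came from the 33 cells of a dendritic-like cluster led by Top2a (64.1 CPM), whereas the 105 cells of the cluster led by Cd7 had 5.61 CPM. Tlr7 had 4 UMIs in dendritic-like cells, a log2 ratio of 4.54 (3.18 to 6.42), and none in keratinocyte-like cells. With 3 counts in place of that 0, Tlr7 was 34.4-fold higher in macrophage-like cells, and the interval began at log2 4.80. Tlr13 had no UMI in the dendritic-like group. With 3 counts in place of 0, or 1.22 CPM, Tlr13 was 9.62-fold higher in macrophage-like cells, and the interval began at log2 2.95. No member had more than 6 UMIs in the 78 keratinocyte-like cells, and Tlr2 and Tlr3, with 6 each, were the highest there.

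Transcripts of C1qa, C1qb and C1qc, complement genes of macrophages, were used to gauge RNA of macrophages in other cells. Their summed level was 0.734% of the macrophage level in fibroblast-like cells, 4.20% in dendritic-like, 6.02% in endothelial-like and 0.295% in keratinocyte-like cells. In fibroblast-like cells Tlr7 was at 0.786% and Tlr1 at 0.541% of their macrophage levels, whereas Tlr2 was at 11.6%, Tlr5 at 45.9%, Tlr4 at 117% and Tlr3 at 157%. Tlr7 in dendritic-like cells was at 4.29%, beside 4.20% for C1q. In endothelial-like cells Tlr7 was at 8.01%, Tlr13 at 11.1% and Tlr1 at 12.6%, on 14, 6 and 8 UMIs, and 13 of the 14 Tlr7 UMIs came from suffix 1. The C1q level of endothelial-like cells was 9.46% with suffix 1 and 2.39% with suffix 2, beside 14.1% and 1.25% for Tlr7, so both were higher with suffix 1. The part of such RNA in these values was not tested.

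Macrophage-like cells fell into 5 clusters, and the genes were spread over them unevenly. Each cluster is named by a leading gene: the Cd209f cluster (335 cells, with Folr2 and Ccl8), the Ccl3 cluster (286, with Ccl4 and Il1a), the Cfd cluster (264, with Hp and Fn1), the Dcstamp cluster (203, with Lyz1 and Retnla) and the Irf7 cluster (148, with Ly6c2 and Ms4a4c). The S100a9 cluster is set beside them, as are the 3 dendritic-like clusters, led by Cd7, Top2a (cycling cells) and Ccr7. Intervals that include 0 mark neighbouring levels that do not differ beyond counting error.

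**Figure D3:**
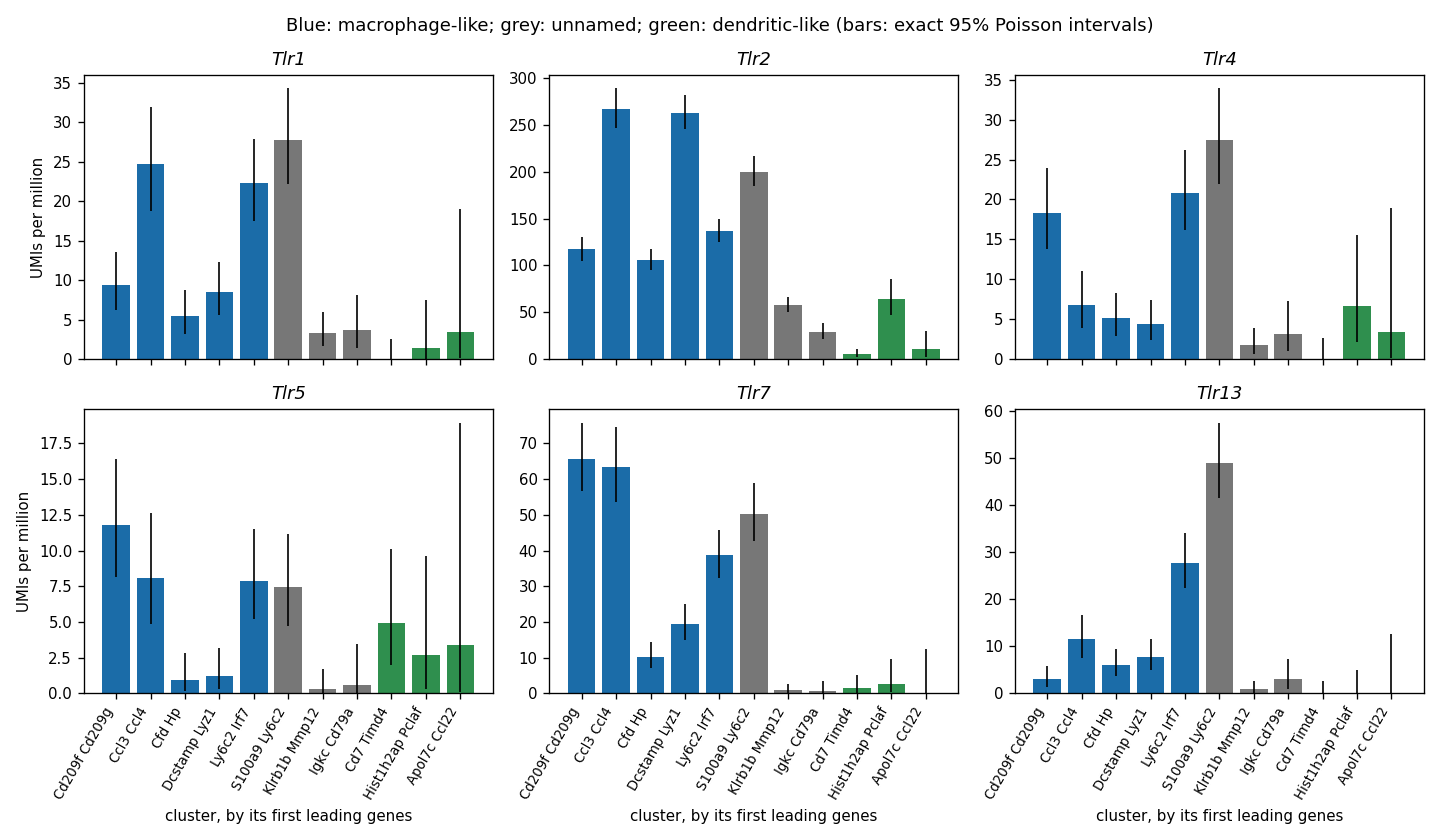
CPM (y axis, own scale for each gene) of 6 Toll-like receptor genes in the 11 phagocyte clusters (x axis, named by their first leading genes). Bars are cluster sums over both libraries, blue for macrophage-like, grey for unnamed and green for dendritic-like clusters, with exact 95% Poisson intervals. Tlr2 is highest in the Ccl3 and Dcstamp clusters, Tlr7 in the Cd209f and Ccl3 clusters and Tlr13 in the S100a9 cluster.

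Tlr2 was highest in the Ccl3 cluster, at 269 CPM with suffix 1 and 261 CPM with suffix 2, and in the Dcstamp cluster, at 251 and 300.2 CPM. These 2 clusters did not differ beyond counting error, with a log2 ratio of 0.02 (-0.13 to 0.17), and the S100a9 cluster followed at 206 and 171 CPM. Below them came the Irf7 cluster at 137 CPM pooled, then the Cd209f and Cfd clusters at 117 and 106 CPM, which did not differ from each other (0.14, -0.08 to 0.37). The order continued through the Top2a cluster at 64.1 CPM and the Mmp12 cluster at 57.9 CPM to the Cd7 cluster at 5.61 CPM, a log2 of 5.57 (4.59 to 6.79) below the Ccl3 cluster. The Top2a value rested on suffix 1, which gave 47 of its 48 UMIs and 29 of its 33 cells.

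Tlr7 had a different order. It was at 65.7 and 65.9 CPM in the Cd209f cluster and at 65.5 and 56.9 CPM in the Ccl3 cluster of suffixes 1 and 2, level with each other (0.05, -0.27 to 0.37). The S100a9 cluster had 53.8 and 33.0 CPM and the Irf7 cluster 40.3 and 34.3 CPM. The Dcstamp and Cfd clusters were lower in both libraries, at 19.5 and 10.3 CPM pooled, so that the Dcstamp cluster combined a high level of Tlr2 with a low level of Tlr7. The Cd209f cluster exceeded the Cfd cluster by a log2 of 2.68 (2.13 to 3.27). Only 3 UMIs of Tlr7 were found in the Mmp12 cluster, 1 in the Igkc cluster and 4 in the dendritic-like clusters together.

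Tlr13 was highest in the S100a9 cluster, at 53.4 CPM with suffix 1 (138 UMIs) and 27.1 CPM with suffix 2 (14 UMIs). The Irf7 cluster had 30.2 and 21.4 CPM, and the pooled difference between the clusters was a log2 of 0.82 (0.44 to 1.20). All other macrophage-like clusters were lower, from 11.5 CPM in the Ccl3 cluster to 3.11 CPM in the Cd209f cluster, which lay a log2 of 3.98 (3.02 to 5.13) below the S100a9 cluster. The Cd209f cluster, among the highest for Tlr7, was thus low for Tlr13, though its distance to the Cfd cluster was within counting error (log2 0.97, -0.25 to 2.30). In both libraries the S100a9 and Irf7 clusters were the highest for Tlr13, though with suffix 2 their order rested on 14 and 20 UMIs.

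Tlr1 and Tlr4 were also high in the S100a9 and Irf7 clusters, which share Ly6c2, Ms4a4c and Irf7 among their leading genes. Tlr1 was at 27.8 CPM in the S100a9 cluster, 24.7 CPM in the Ccl3 cluster and 22.2 CPM in the Irf7 cluster, with no difference beyond counting error among the 3, and then dropped to 9.34 CPM in the Cd209f cluster. The step from the Irf7 to the Cd209f cluster was a log2 of 1.25 (0.60 to 1.94). Tlr4 was at 27.4 CPM in the S100a9 cluster, 20.8 CPM in the Irf7 cluster and 18.3 CPM in the Cd209f cluster, and at 6.82, 5.13 and 4.39 CPM in the Ccl3, Cfd and Dcstamp clusters. The Ccl3 cluster was thus among the highest for Tlr1, Tlr2 and Tlr7 but among the lower clusters for Tlr4, a log2 of 2.01 (1.23 to 2.88) below the S100a9 cluster.

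Summed over both libraries, Tlr5 was highest in the Cd209f cluster at 11.8 CPM, with 10.4 and 16.9 CPM in suffixes 1 and 2, and had 4 and 3 UMIs in the Dcstamp and Cfd clusters. The S100a9 cluster had 5.03 and 19.4 CPM, so that it stood above the Cd209f cluster with suffix 2, where each of them held 10 UMIs. The Cd209f cluster exceeded the Dcstamp cluster by a log2 of 3.23 (1.74 to 5.18), while its pooled lead over the Ccl3, Irf7 and S100a9 clusters was within counting error. Tlr6 varied less among the macrophage-like, S100a9 and Mmp12 clusters, and dendritic-like cells held 1 UMI of it. Among the former it ran from 66.6% of the macrophage-like level in the Cfd cluster to 161% in the S100a9 cluster. Tlr6 was at 11.6 CPM in the S100a9 cluster and 8.15 CPM in the Mmp12 cluster, which were not told apart at this depth (log2 0.51, -0.25 to 1.29). With suffixes 1 and 2 the S100a9 cluster had 12.0 and 9.69 CPM and the Mmp12 cluster 5.75 and 14.8 CPM, so their order changed with the library. The Mmp12 cluster lay a log2 of 2.21 (1.97 to 2.45) below the highest cluster for Tlr2 and 6.18 (4.61 to 8.47) below it for Tlr7. For Tlr8 and Tlr9 no neighbouring clusters in the order differed beyond counting error, with at most 18 and 14 UMIs in any phagocyte cluster.

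**Figure D4:**
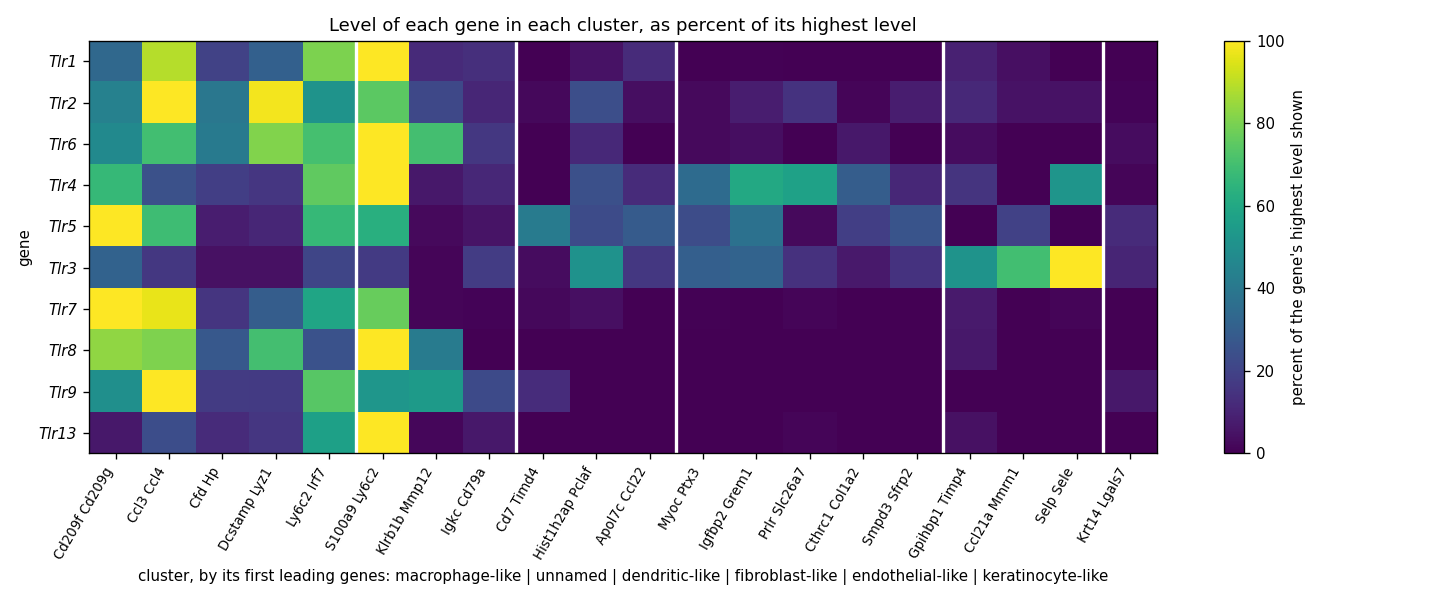
Level of each Toll-like receptor gene (y axis) in 20 clusters (x axis, named by their first leading genes and parted by white lines into macrophage-like, unnamed, dendritic-like, fibroblast-like, endothelial-like and keratinocyte-like), as percent of the gene's highest level shown. Most genes are brightest in the macrophage-like clusters and the S100a9 cluster on the left, while Tlr3 is brightest in the Selp cluster on the right and Tlr4 is also visible in fibroblast-like clusters.

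Stromal clusters differed in Tlr2, Tlr3, Tlr4 and Tlr5. Among the 5 fibroblast-like clusters, Tlr2 was highest in the Prlr cluster (110 cells, with Crabp1 and Inhba), at 38.1 and 47.9 CPM in suffixes 1 and 2. The Myoc cluster (354 cells, with Ptx3 and Has1) had 4.57 and 6.70 CPM, lower in both libraries and by a log2 of 2.63 (1.98 to 3.34) pooled. The Igfbp2 cluster (279 cells, with Grem1) lay between them at 33.8 and 13.5 CPM, where suffix 1 was the higher. The Myoc cluster had 62 cells with suffix 1 and 292 with suffix 2, and the Prlr cluster 78 and 32, so the share of these clusters moved with the library.
Tlr4 was at 16.6 CPM in the Igfbp2 cluster and 15.7 CPM in the Prlr cluster, level with each other (log2 0.08, -0.44 to 0.61), and at 9.61 CPM in the Myoc cluster. In the Prlr cluster it was at 12.2 CPM with suffix 1 and 47.9 CPM with suffix 2, on 37 and 16 UMIs. Tlr5 had 21 UMIs in the Igfbp2 cluster (4.40 CPM) and 1 in the Prlr cluster, so that the cluster with the most Tlr2 held almost no Tlr5.

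Among endothelial-like cells, Tlr3 was at 21.0 CPM in the Selp cluster (48 cells, with Sele and Vwf, genes of venous and activated endothelium), 14.7 CPM in the Mmrn1 cluster (56 cells, with Prox1 and Lyve1, genes of lymphatic endothelium) and 10.8 CPM in the Gpihbp1 cluster (247 cells, a gene of capillaries). The libraries did not share this order. The Selp cluster had 41.1 CPM with suffix 1 and 6.56 CPM with suffix 2, and the Mmrn1 cluster 5.43 and 29.98 CPM. Tlr3 was above the pooled macrophage level in each of the 3 clusters when the libraries were summed. Tlr4 was at 14.3 CPM in the Selp cluster and 4.09 CPM in the Gpihbp1 cluster, a log2 ratio of 1.81 (0.59 to 3.08), and at 11.4 and 16.4 CPM in the Selp cluster of suffixes 1 and 2. The Mmrn1 cluster had no UMI of Tlr4. Tlr2 was highest in the Gpihbp1 cluster, at 35.7 and 26.1 CPM, or 17.9% of its macrophage level when pooled. C1q was also at its highest among endothelial-like clusters there, at 8.61% of the macrophage level. In the Selp cluster Tlr2 was 13.4 CPM, or 7.68% of its macrophage level, and C1q was at 0.112%.

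Per cell, the receptors were found sparsely. After each cell was thinned to 2000 UMIs, at least 1 UMI of any member was found in 37.6% of 1190 macrophage-like cells (exact 95% interval 34.8 to 40.4) and in 53.4% of 277 cells of the S100a9 cluster (47.4 to 59.4). The share was 7.19% in fibroblast-like, 6.15% in endothelial-like and 3.18% in dendritic-like cells. It was 0 of 74 in keratinocyte-like cells, where 3 cells in place of 0 would be 4.05%. Without thinning, 14 of 78 keratinocyte-like cells (17.9%) had a UMI of a member. Median depths before thinning were 10201 UMIs in macrophage-like and 13108 in fibroblast-like cells, and without thinning the macrophage share was 76.3%. Thinning left out 46 macrophage-like and 47 fibroblast-like cells. As a background, C1qb was found in 1.67% of thinned fibroblast-like cells and 4.62% of endothelial-like cells against 77.7% of macrophage-like cells.
Tlr2 was found in 23.8% of macrophage-like and 26.7% of S100a9 cluster cells, and in 3.34% of fibroblast-like cells. Tlr7 was found in 7.48% and 8.66% of the first 2, and in 0.128% of fibroblast-like cells. Tlr13 was found in 2.10% of macrophage-like and 10.1% of S100a9 cluster cells. Of the 1190 macrophage-like cells, 382 had UMIs of 1 member, 61 of 2 and 4 of 3, and none had more. A cell without a UMI may still express the gene, since a level of a few CPM is less than 1 UMI per thinned cell. The sort for F4/80 and MHC class II sets which macrophages and dendritic cells entered these shares. Fibroblast-like, endothelial-like and keratinocyte-like cells came through the same sort, so their levels and shares may not be those of such cells in skin at large.

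Other genes of the pathway were taken from a list of 59, of which 56 had at least 10 UMIs in macrophage-like and fibroblast-like cells together. Of these, 29 were higher in macrophage-like cells and 7 were lower, against the background of 18.4% and 31.1%, with a median log2 ratio of 1.23 beside -0.25 over all genes. By role, 7 of 10 co-receptors and chaperones (a role that also held Tlr11 and Tlr12), 2 of 4 adapters, 5 of 14 kinases and ligases, 4 of 8 transcription factors, 2 of 7 inhibitors, 3 of 4 endosomal proteases and 6 of 9 induced targets were higher. The 7 that were lower were 1 co-receptor, 3 inhibitors, 1 protease and 2 induced targets.

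**Figure D5:**
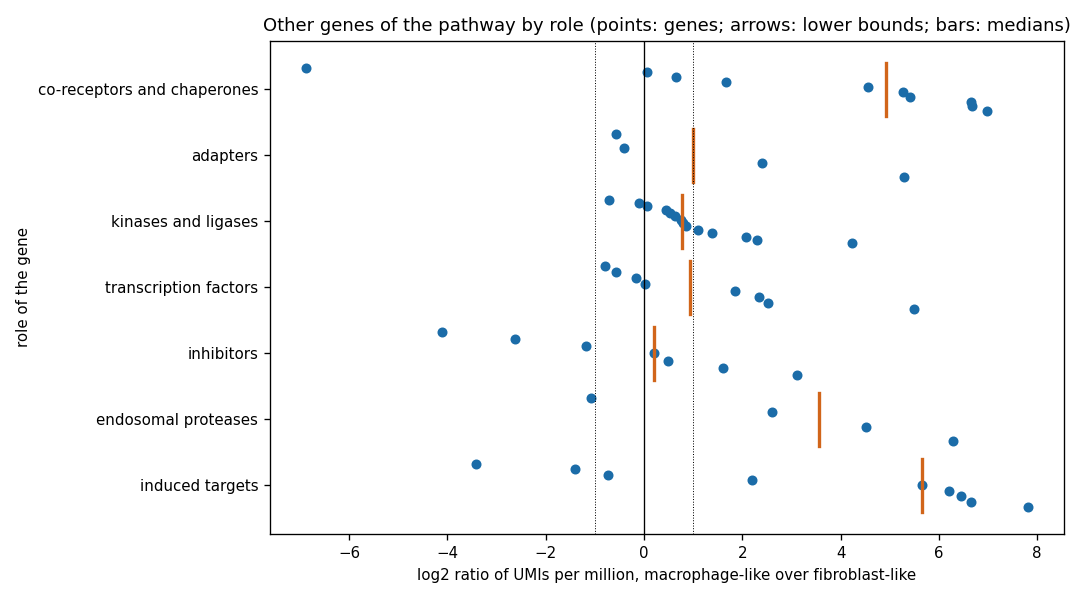
Log2 ratio of CPM in macrophage-like over fibroblast-like cells (x axis) for the 56 tested pathway genes by role (y axis). Points are genes, orange bars are medians of a role and dotted lines mark 2-fold. Co-receptors and chaperones have a median of 4.92 and induced targets of 5.65, whereas kinases and ligases have 0.77.

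Most co-receptors and chaperones were higher in macrophage-like than in fibroblast-like cells. Cd14, which hands lipopolysaccharide to TLR4, was at 1895 CPM in macrophage-like and 18.9 CPM in fibroblast-like cells, a log2 ratio of 6.65. Ly96, which encodes MD-2, was at 40.7 and 12.8 CPM, a log2 ratio of 1.67 (1.43 to 1.93). Cd180, a receptor related to TLR4, and its partner Ly86 had log2 ratios of 6.99 and 6.67. Fibroblast-like cells thus had Tlr4 at the macrophage level, Ly96 at a lower level and little Cd14. Lbp, the lipopolysaccharide-binding protein, ran the other way, at 1.20 CPM in macrophage-like, 141 CPM in fibroblast-like and 156 CPM in endothelial-like cells, a log2 ratio of -6.87 over fibroblast-like cells.
Unc93b1 was at 478 CPM in macrophage-like cells, 77.4 CPM in dendritic-like and 20.2 CPM in fibroblast-like cells, log2 ratios of 2.63 and 4.57. Among phagocyte clusters it was 566 CPM in the Cd209f cluster and 38.6 CPM in the Cd7 cluster. The endosomal proteases Ctss, Lgmn and Ctsb, which process such receptors, had log2 ratios over fibroblast-like cells of 6.28, 4.52 and 2.59, and Ctsl had -1.08. Hsp90b1, a general chaperone of receptors, had a pooled log2 ratio of 0.05, but the libraries differed in sign, with 0.60 for suffix 1 and -0.17 for suffix 2.

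Downstream of the receptors, 2 of 4 adapters and 5 of 14 kinases and ligases were higher in macrophage-like cells by 2-fold or more. Of the 8 transcription factors 4 were higher, and no tested gene of these roles was lower by that fold. Among all genes tested, 18.4% were higher and 31.1% lower. Myd88 was at 62.0 CPM in macrophage-like and 92.4 CPM in fibroblast-like cells, a log2 ratio of -0.58, and Tirap, which bridges MYD88 to TLR2 and TLR4, had -0.40. Ticam1 and Ticam2, the TRIF adapter and its bridge to TLR4, had 2.40 and 5.29. Irak1 and Map3k7 were even at 0.07 and -0.10, whereas Irak4 and Irak2 had 2.31 and 4.23. Of the transcription factors, Irf5 and Rel had 5.50 and 2.52, and Irf3 and Rela had -0.78 and -0.56.
Among inhibitors, Socs1 and Irak3 were lower in macrophage-like cells, at log2 ratios of -4.10 and -2.63, and Tollip was higher at 1.61, with Tnfaip3 at 0.49. Socs1 had -4.62 with suffix 1 and -3.12 with suffix 2, and Tnfaip3 had 1.06 and -0.11. Nfkbia, which encodes an inhibitor of NF-kB and was named after its values were seen, was also lower, at a log2 ratio of -1.18. Of the genes that these receptors can induce, Ccl3 and Tnf had 7.81 and 6.65, and Il6 and Ptgs2 had -3.41 and -1.40. Il6 had -2.62 with suffix 1 and -3.82 with suffix 2, and Ptgs2 had -0.16 and -1.73. Il6 was at 760 CPM in endothelial-like cells against 49.9 CPM in macrophage-like cells.

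Genes most like each receptor across all 26 clusters were ranked by Pearson's r of log2(CPM + 5) among 10582 genes, for the 6 members with at least 200 UMIs. The clusters share libraries and depth, so r is a description with no test. Tlr7 was most like Msr1 (r = 0.97), a scavenger receptor gene, then Ccl12 and Csf3r (0.96 each). Tlr13 was most like Dppa3 (0.97), Fcgr4 (0.96) and Fpr2 (0.93). Tlr1 was most like Trem2 (0.91), Cd300lb (0.91) and Gm36161 (0.91), and Tlr2 most like Cyp4f18 (0.89), Pitpna (0.89) and Cd300ld (0.88). For Tlr4 the closest were Rab1a (0.79), Lhfpl2 (0.77) and Cmklr1 (0.75), and for Tlr3 Cntln (0.81), Myo1c (0.80) and Csrp2 (0.79). Between members, r was 0.83 for Tlr1 with Tlr2, 0.85 for Tlr7 with Tlr13 and 0.48 for Tlr2 with Tlr4, and it lay between -0.17 and 0.17 for Tlr3 with the other 5. These values run over phagocyte and other clusters together and do not describe the order within phagocytes. There, the Cd209f cluster had Tlr7 at 174% and Tlr13 at 26.6% of the macrophage-like level.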

How the data were processed

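UMI counts came from single-cell libraries of droplets with 3′ chemistry, made by the authors with Cell Ranger 4.0.0 on mm10 per the labels' processing notes, and deposited without normalization as 1 matrix of counts for both libraries. Cells with at least 500 genes, 1000 UMIs and at most 10% mitochondrial UMIs were kept. Scrublet called 6 doublets, so doublets count as untreated. The 2000 most variable genes, chosen without the 69 members and pathway genes, were reduced to 30 components, and a graph of 15 neighbours was clustered with Leiden at resolution 1 (scanpy 1.11.5, leidenalg 0.10.2, Python 3.11.15), which gave 26 clusters, and 15 marker lists named them. Naming required at least 3 of a list's markers above 20 CPM and above 2 times their median over clusters, a lead of 0.5 in mean log2 excess, and no more markers of another list than of its own among the 10 leading genes. Names are rebuilt, hence "like". UMIs were summed per group and divided by the group total. Exact Poisson, Clopper-Pearson and conditional binomial 95% intervals (scipy 1.17.1) cover counting error only, and a sum of 0 was replaced by a limit of 3 counts in ratios. The ratio and its interval were tested on simulated Poisson counts with known changes, and the depth after thinning was checked on real cells. Filtering, clustering and naming were not tested in this way.

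The members and lists were chosen with earlier results of these data known. All 10 members are described. Of the pathway list, each role's 2 highest and 2 lowest ratios among genes with at least 100 UMIs are named, with the direct partners of the receptors, and the 3 most alike genes for members with at least 200 UMIs. GENCODE gave positions for 32235 of the 32285 genes. The comparison of ages was not made. Alternatives varied the cell filter, clustering, grouping, doublets, library, fold and count limit.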

Additional observations from a re-analysis of the deposited data

How the results depend on the processing

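Of 81 recomputed counts and shares, 77 stayed within 1.5 times the reported count or within the interval of the reported share. The exceptions were as follows. When cells with 3 or more UMIs of another group's markers were left out, 2 members in place of 8 were higher over dendritic-like cells and 3 in place of 9 over keratinocyte-like cells. That alternative left 23 of 159 dendritic-like and 35 of 78 keratinocyte-like cells, and the reason for the lower counts was not tested. The share of macrophage-like cells with any member UMI was 21.9% when cells were thinned to 1000 UMIs and 76.3% without thinning, which follows from the depth. The count over fibroblast-like cells stayed at 8 in 12 settings and was 7 with suffix 2 alone, at 4-fold and without the cells with UMIs of another list. Of 470 ratios of single members, 368 stayed within the reported interval, 102 moved outside it and none of those past 2-fold changed sign. Of the 102, 35 came from using either library alone. Lower bounds under a log2 of 0 give no value and were not counted. Placing the unnamed phagocyte clusters in the group of their best list, chosen after seeing the data, gave 8, 7, 9 and 9 members over fibroblast-like, dendritic-like, endothelial-like and keratinocyte-like cells. No paired analysis was possible because the 2 libraries form 1 pooled sample with no label that ties a barcode to a group. The number of members whose highest phagocyte cluster exceeded another beyond counting error was 10 at resolutions 0.5, 1 and 2. It is easily reached, since the highest cluster needs to exceed any other, and some dendritic-like clusters had few or no UMIs. The count therefore does not show that the order of clusters is stable. Depth limits Tlr8 and Tlr9, which had 76 and 64 UMIs in all kept cells.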

Other observations

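Tlr11 and Tlr12, which sense profilin of protozoa in mice, were counted outside the 10 genes described above. Tlr11 had 85 UMIs and Tlr12 14 UMIs in all kept cells. Tlr11 was highest in the Igkc cluster, at 11.2 CPM (95% interval 6.63 to 17.7, 18 UMIs), a log2 of 1.32 (0.23 to 2.44) above the Cfd cluster, the next in order. In the S100a9 cluster, which was high for Tlr1, Tlr4 and Tlr13, Tlr11 had 3 UMIs.

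In cells outside the 5 groups, Tlr3 was at 9.02 CPM in 126 Schwann-like cells (8 UMIs) and at 6.89 CPM in 170 pericyte-like and smooth-muscle-like cells (16 UMIs). Tlr2 was at 13.8 CPM in the latter (32 UMIs), where C1q was at 5.69% and Tlr2 at 7.92% of the macrophage level. Mast-like cells had 3 UMIs of Tlr4 and 5 of Tlr7 in 32 cells. These were 154% and 77.0% of the macrophage level, with C1q at 11.0%.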
